A study of Homo sapiens with 8 samples.

Results

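The genes described here are 35 that encode the DNA replication fork and the enzymes that supply it with deoxynucleotides. They were taken by symbol from a list chosen with earlier results of these data known, so the counts below are not those of an unselected set. The list holds the helicase assembly factors MCM10, CDC45 and GINS1 to GINS4, the replicative polymerases, and the sliding clamp and its loader. It also holds the single-strand binding protein RPA and the factors that join Okazaki fragments. The last are 4 genes of chromatin assembly behind the fork and 5 genes of deoxynucleotide synthesis. All 35 were among the 18892 gene rows of the RNA table, and all 35 passed the filter of at least 1 RPM (reads relative to a fixed library size) in at least 2 of the 4 libraries, as did 11833 rows in all. The cells were C4-2, an established human prostate cancer line, grown in medium with serum. Cells with a control short hairpin RNA (shCTRL) were compared with cells with a hairpin against CDCA8 (shCDCA8), the gene of borealin, a protein of the chromosomal passenger complex that acts in mitosis. PolyA RNA was sequenced from 2 libraries of each group. The labels name 1 target per hairpin and no rescue, so effects of the hairpin on other targets and those of CDCA8 loss cannot be told apart. They do not say whether the 2 libraries of a group came from separate cultures, so the p-values measure only the spread between these libraries, which may be technical.

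At a replication fork, the CMG helicase, made of CDC45, the MCM2-7 ring and the GINS tetramer, opens the duplex. Polymerase alpha-primase lays down the primers, polymerase epsilon extends the leading strand and polymerase delta the lagging strand, both with the PCNA clamp, which replication factor C (RFC) loads. RPA coats the exposed single strands, FEN1 and LIG1 process and seal Okazaki fragments, and CAF-1 deposits histones on the new DNA. Ribonucleotide reductase, thymidylate synthase, thymidine kinase and dUTPase set the supply of deoxynucleotides. Many of these genes are transcribed as cells enter S phase, and many are textbook targets of E2F transcription factors.

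Because members of the group are known E2F targets, the 250 bases before the annotated start were read from RefSeq (GRCh38.p14) for 8 members, shown for these reasons: CDC45, UHRF1, DUT, TYMS and RRM2 were among the strongest falls, POLA2 fell less, and RFC3 and RFC1 belong to 1 complex and moved in opposite directions. Capitals mark the E2F-type letters TTTCCCG and its variants (the first TTTGGCG, the next TTTCGCG, the last TTTGCCG), the box letters CCAAT, and, for a cell-cycle homology region (CHR), the letters TTTGAA or the variant TTCGAA, each searched on both strands. Where a gene has several starts, the window with the most E2F-type letters is given.
CDC45 (chr22:19479670-19479919, plus strand): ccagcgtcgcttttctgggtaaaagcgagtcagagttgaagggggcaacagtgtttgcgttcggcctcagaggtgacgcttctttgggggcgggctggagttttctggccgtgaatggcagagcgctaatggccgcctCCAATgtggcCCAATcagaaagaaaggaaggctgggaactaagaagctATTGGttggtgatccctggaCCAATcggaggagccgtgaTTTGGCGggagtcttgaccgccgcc
UHRF1 (chr19:4909251-4909500, plus strand): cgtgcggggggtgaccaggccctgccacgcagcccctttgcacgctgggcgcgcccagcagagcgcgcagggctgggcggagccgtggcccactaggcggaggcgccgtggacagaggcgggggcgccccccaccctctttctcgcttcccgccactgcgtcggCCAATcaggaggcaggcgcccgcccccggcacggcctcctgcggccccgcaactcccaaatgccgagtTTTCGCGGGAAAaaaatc
DUT (chr15:48331947-48332196, plus strand): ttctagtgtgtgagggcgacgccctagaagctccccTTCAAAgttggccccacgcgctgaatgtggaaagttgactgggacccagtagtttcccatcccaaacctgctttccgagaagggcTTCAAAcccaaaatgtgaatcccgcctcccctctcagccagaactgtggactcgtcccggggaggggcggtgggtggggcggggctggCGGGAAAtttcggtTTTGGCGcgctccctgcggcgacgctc
TYMS (chr18:657403-657652, plus strand): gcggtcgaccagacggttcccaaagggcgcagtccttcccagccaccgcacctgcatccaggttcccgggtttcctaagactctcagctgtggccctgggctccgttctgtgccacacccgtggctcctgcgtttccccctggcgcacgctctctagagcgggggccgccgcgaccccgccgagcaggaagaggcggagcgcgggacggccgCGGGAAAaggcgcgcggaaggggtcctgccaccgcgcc
POLA2 (chr11:65261712-65261961, plus strand): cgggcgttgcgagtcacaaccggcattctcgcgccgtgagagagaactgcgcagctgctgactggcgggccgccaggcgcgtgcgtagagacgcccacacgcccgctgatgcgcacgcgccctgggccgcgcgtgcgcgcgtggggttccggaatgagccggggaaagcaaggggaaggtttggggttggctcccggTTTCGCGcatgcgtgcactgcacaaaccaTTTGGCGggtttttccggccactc
RRM2 (chr2:10122489-10122738, plus strand): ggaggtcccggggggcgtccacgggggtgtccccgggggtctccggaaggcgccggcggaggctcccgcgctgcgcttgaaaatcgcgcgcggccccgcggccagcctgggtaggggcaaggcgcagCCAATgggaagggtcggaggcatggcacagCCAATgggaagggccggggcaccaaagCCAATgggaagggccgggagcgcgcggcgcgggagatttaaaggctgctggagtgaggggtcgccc
RFC3 (chr13:33817899-33818148, plus strand): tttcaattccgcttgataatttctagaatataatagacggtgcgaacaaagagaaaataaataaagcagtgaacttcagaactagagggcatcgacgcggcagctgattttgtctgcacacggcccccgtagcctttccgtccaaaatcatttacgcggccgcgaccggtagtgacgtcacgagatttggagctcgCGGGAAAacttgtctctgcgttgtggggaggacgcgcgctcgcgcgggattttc
RFC1 (chr4:39366363-39366612, minus strand): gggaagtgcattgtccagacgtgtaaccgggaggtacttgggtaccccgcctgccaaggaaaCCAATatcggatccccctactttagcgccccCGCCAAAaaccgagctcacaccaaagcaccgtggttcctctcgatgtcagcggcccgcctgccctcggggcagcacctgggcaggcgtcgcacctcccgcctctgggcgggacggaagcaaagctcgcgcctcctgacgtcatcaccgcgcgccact

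In these windows CDC45 held E2F-type letters whose first base lies 25 bases before the start, together with 4 CCAAT boxes. UHRF1, DUT and POLA2, which fell less, held 2 E2F-type matches each, and TYMS held 1. Those of UHRF1 (first bases at -18 and -13) share bases. RRM2 held none and had 3 CCAAT boxes. RFC1, the member that rose, held 1 E2F-type match and 1 CCAAT box, and RFC3, which fell, held 1 E2F-type match. RefSeq windows from 250 bases before to 50 bases after the start were found for 31 of the 35 members (not for GINS4, POLD3, RPA2 and RPA3). E2F-type letters were in at least 1 window of 17 of these 31 genes (54.8%), against 16.6% of the 8848 tested genes that had a window. Counted per window, the shares were 41.9% of 43 member windows, 12.3% of 12984 windows of tested genes and 8.67% of all 35116 windows. CCAAT letters were in 54.8% of the members and 43.5% of the tested genes, and CHR letters in 6.45% and 14.4%. Among the 11 members that fell at least 2-fold, as 14.6% of all tested genes did, 6 held E2F-type letters, and among the other 20 with a window 11 did. Per window, the shares were 31.8% of 22 windows of the former and 52.4% of 21 windows of the latter. Whether the letters go with the size of the change was not tested. Of the 11 members that fell at least 2-fold, GINS1, POLD1, CHAF1B, TK1 and PRIM2 fell more than RRM2 but are not shown above. Only GINS1 of them held E2F-type letters, so the strong falls shown hold such letters more often than the 11 do. A match is a string of letters and not a measured binding site.

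The 4 libraries held between 17406425 and 21920570 reads in the gene rows, which were 41.1% and 43.6% of the reads used as divisor in shCTRL and 33.3% and 34.2% in shCDCA8. The table therefore moved as a whole: the median log2 change of all tested genes was -0.27, and counts of calls are also given after median-ratio scaling, which brings that median to 0.01. CDCA8 itself went from 14.2 and 16.5 RPM to 3.98 and 3.94 RPM, a log2 change of -1.72 (SE 0.135). All 9 prostate luminal markers were detected with at least 2988 reads in every library; 6 of them fell and 2 (KRT8 and KRT18) rose as deposited, and 5 were lower and 3 higher after median-ratio scaling. KLK3, which encodes prostate-specific antigen, went from 1454 and 1477 RPM to 364 and 438 RPM. Summed markers of fibroblasts went from 12.0 and 14.6 RPM to 4.61 and 5.30 RPM, with 7 of 8 genes present as rows and COL1A1 giving most of the sum. Those of basal epithelium (4 of 6 genes) were at 6.68 and 7.24 against 2.87 and 3.36 RPM, and those of leukocytes and endothelium (6 of 9 genes) at 11.3 and 14.8 against 10.4 and 12.0 RPM. The latter sum holds opposite changes: of its 2 tested genes VWF fell (-1.40) and CD68 rose (0.41), both also called after median-ratio scaling. None of the 18892 gene rows was at 0 in all libraries, so the same holds for the markers present as rows and says nothing particular about them. The part of these genes in the results was not tested.

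Of the 35 fork and deoxynucleotide genes, 29 fell in shCDCA8 cells, 1 rose (RFC1) and 5 did not pass the test (POLA1, POLD3, RFC4, RFC5 and RRM1). The falls include PRIM2 and POLE2, which passed the filter only through shCTRL, where they are high, and which are no support for the count. A call is an adjusted p under 0.05 in limma, with Benjamini-Hochberg adjustment over all 11833 genes, on log2(RPM + 1). By the same rule 66.4% of all tested genes passed, 47.6% lower and 18.8% higher. The median log2 change of the members was -0.62, which is 0.35 below that of all tested genes, and 31 of the 35 lay below the all-gene median. In all, 11 of the 35 fell at least 2-fold, PRIM2 among them, against 14.6% of all tested genes. After median-ratio scaling 21 members fell and 1 rose, against 33.6% and 33.2% of all tested genes, and all 11 of the 2-fold falls were among the 21. The 8 falls lost at that scaling were PRIM1, POLE, POLE2, PCNA, RFC2, RPA2, CHAF1A and SLBP. Summed over the members, 755 and 835 RPM in shCTRL stood against 462 and 470 RPM in shCDCA8, or 58.6% of the shCTRL mean. As a share of the reads in the gene rows, the members held 0.184% and 0.191% in shCTRL and 0.139% and 0.137% in shCDCA8. In these bulk libraries, fewer cells in S phase and less RNA per such cell cannot be told apart.

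**Figure D1:**
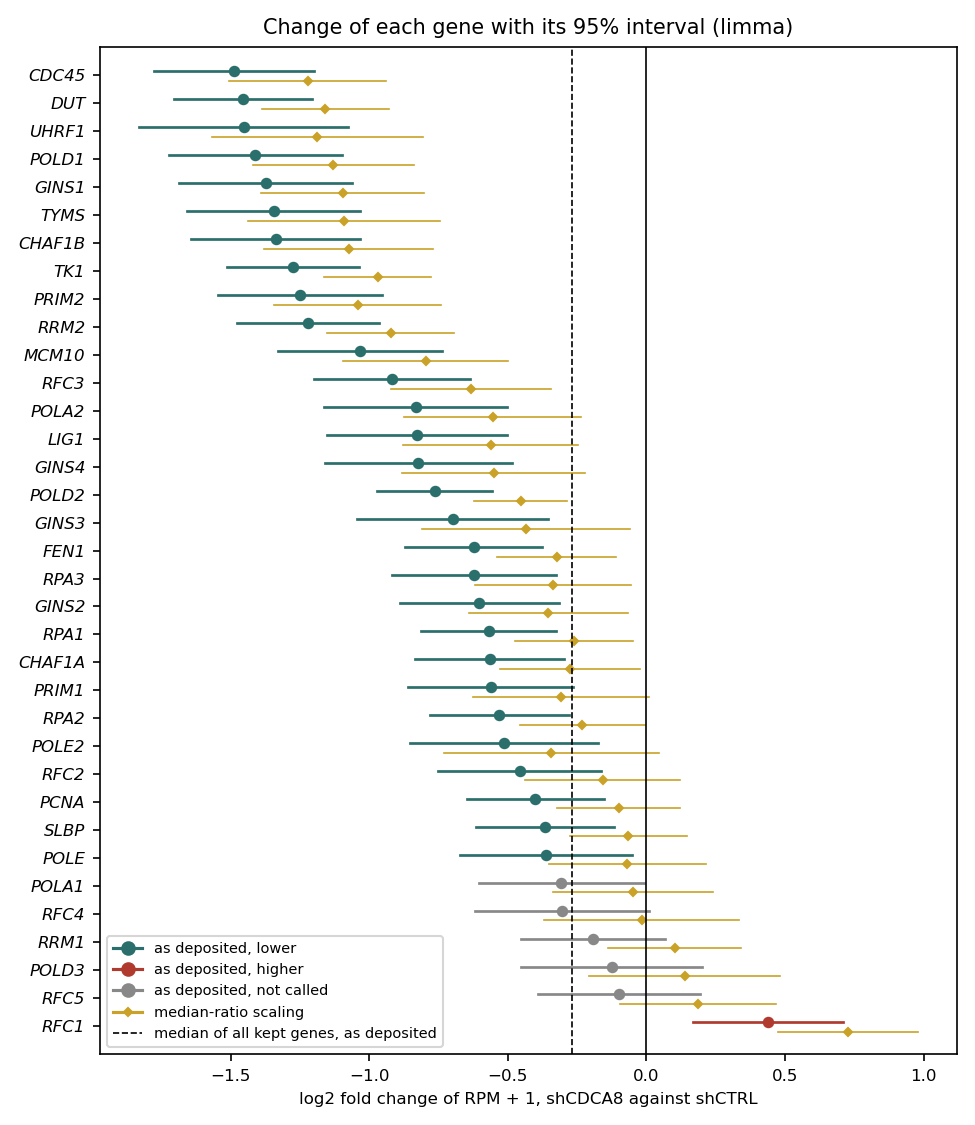
Log2 change (shCDCA8 minus shCTRL) of log2(RPM + 1) for each of the 35 members, ordered by size, with 95% intervals from limma: large circles as deposited, small diamonds after median-ratio scaling. The solid line is no change and the dashed line the all-gene median of -0.27; 31 circles lie to the left of it, CDC45 farthest at -1.49, and RFC1 is the one circle above 0, at 0.44.

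The 6 helicase assembly genes all fell at both scalings, with a median log2 change of -0.93. CDC45, the CMG subunit recruited when an origin fires, went from 11.6 and 11.5 RPM (shCTRL) to 3.31 and 3.64 RPM (shCDCA8), a log2 change of -1.49 (SE 0.132, limma adjusted p = 1.88e-06), the lowest of the 35 with a pseudocount of 1 RPM but not with 0.1 RPM, where PRIM2 was at -1.78 and CDC45 at -1.71. GINS1, a subunit of the GINS tetramer, went from 13.1 and 16.2 RPM to 4.80 and 5.23 RPM (-1.37, SE 0.143, limma adjusted p = 6.48e-06). In both genes the shCDCA8 libraries lay far below both shCTRL libraries. MCM10, which helps to activate the assembled helicase, changed by -1.03. The other GINS subunits fell less: GINS4 by 0.82, GINS3 by 0.70 and GINS2 by 0.60 on the log2 scale.

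Polymerase alpha-primase has a catalytic subunit (POLA1), an accessory subunit (POLA2), the primase catalytic subunit (PRIM1) and the large primase subunit (PRIM2). Of these, 3 of 4 fell, against 47.6% of all tested genes, and 2 of 4 at median-ratio scaling, against 33.6%. PRIM2 went from 3.68 and 4.17 RPM to 1.19 and 0.959 RPM, a log2 change of -1.25 (SE 0.135, limma adjusted p = 8.94e-06). It passed the filter only through shCTRL, the group where it is high, so its fall is no support for the counts. POLA2 was at 9.42 and 12.5 RPM against 5.49 and 5.86 RPM (-0.83, SE 0.151, limma adjusted p = 0.00044). POLA1 was at 5.27 and 5.59 RPM against 3.92 and 4.49 RPM. Its groups did not overlap, but its log2 change of -0.31 (95% interval -0.60 to -0.01) did not pass the adjusted threshold, and after median-ratio scaling it was -0.05 (-0.34 to 0.24). PRIM1 changed by -0.56 as deposited and by -0.31 after median-ratio scaling, where its limma adjusted p was 0.0772.

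Of the 5 genes of polymerases delta and epsilon, 4 fell as deposited and 2, POLD1 and POLD2, also at median-ratio scaling. Of all tested genes, 47.6% fell as deposited and 33.6% at that scaling. The scaled count is near the latter share and is not a result about this role. POLD1, the catalytic subunit of polymerase delta, went from 15.3 and 18.9 RPM to 5.40 and 6.19 RPM (log2 change -1.41, SE 0.142, limma adjusted p = 5.19e-06). POLD2, its second subunit, was at 177 and 189 RPM against 103 and 112 RPM (-0.76, SE 0.0947, limma adjusted p = 2.49e-05). POLD3, a subunit with a PCNA-binding motif, was at 5.10 and 6.19 RPM against 5.63 and 4.56 RPM, so its groups overlapped. Its log2 change was -0.13 (95% interval -0.45 to 0.20) as deposited and 0.14 (-0.21 to 0.48) after median-ratio scaling. POLE, the catalytic subunit of polymerase epsilon, changed by -0.36 and by -0.07 after median-ratio scaling. POLE2 changed by -0.52, with 39 reads in its lowest library, the fewest of any member. It too passed the filter only through shCTRL (1.09 and 0.705 RPM in shCDCA8), so its fall is no support for the counts.

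The clamp and its loader had the smallest median log2 change of the 8 roles as deposited, -0.35. Of 6 genes 3 fell, 1 rose and 2 did not pass, and at median-ratio scaling 1 fell (RFC3) and 1 rose (RFC1); as deposited, the shares of calls in this role were near the 47.6% lower and 18.8% higher of all tested genes. RFC3, a small subunit of the loader, went from 15.6 and 15.8 RPM to 8.38 and 7.31 RPM (log2 change -0.92, SE 0.129, limma adjusted p = 6.39e-05). RFC1, the large subunit that sets the canonical loader apart from its alternative forms, went from 10.1 and 10.0 RPM to 13.7 and 14.3 RPM (0.44, SE 0.123, limma adjusted p = 0.00779). It was the one member whose shCDCA8 libraries both lay above shCTRL, and its change was 0.73 after median-ratio scaling. Without the second shCDCA8 library its change was 0.41 with a limma adjusted p of 0.0508, which ends the call. RFC4 was at 12.7 and 11.9 against 11.1 and 8.55 RPM, a log2 change of -0.30 (95% interval -0.62 to 0.01), and RFC5 at 9.57 and 11.3 against 9.91 and 9.37 RPM, a change of -0.10 (-0.39 to 0.19). PCNA itself fell from 26.0 and 27.4 RPM to 20.2 and 19.8 RPM (-0.40), a change that was -0.10 after median-ratio scaling and not called there. RFC2 changed by -0.46 and by -0.16 after that scaling.

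All 3 RPA subunits fell, by similar amounts. RPA1, the largest subunit, went from 73.9 and 89.0 RPM to 54.8 and 53.9 RPM (log2 change -0.57, SE 0.112, limma adjusted p = 0.000766). RPA2 went from 27.9 and 30.5 RPM to 20.4 and 19.4 RPM (-0.53, SE 0.115, limma adjusted p = 0.00149), and RPA3 changed by -0.62. The groups of all 3 were apart, and RPA2 lost its call at median-ratio scaling (-0.23, limma adjusted p = 0.0673). Both Okazaki fragment genes fell at both scalings. FEN1, the flap endonuclease, was at 28.1 and 29.8 against 18.3 and 18.6 RPM (-0.62, SE 0.113, limma adjusted p = 0.000439). LIG1, the ligase that seals the nicks, was at 6.90 and 8.97 against 3.90 and 4.11 RPM (-0.83, SE 0.148, limma adjusted p = 0.000402).

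All 4 genes of chromatin behind the fork fell, and 2 of them, CHAF1B and UHRF1, also at median-ratio scaling. The shares of all tested genes were 47.6% as deposited and 33.6% at that scaling. CHAF1B, the middle subunit of CAF-1, went from 10.3 and 9.78 RPM to 3.04 and 3.73 RPM (log2 change -1.34, SE 0.139, limma adjusted p = 6.64e-06). UHRF1, which brings the maintenance DNA methyltransferase to hemimethylated DNA, went from 9.38 and 13.7 RPM to 3.18 and 3.89 RPM (-1.45, SE 0.173, limma adjusted p = 1.85e-05). Its shCTRL libraries differed by 0.51 on the log2 scale, the widest replicate gap of any member, and still lay above both shCDCA8 libraries. CHAF1A, the large CAF-1 subunit, changed by -0.57, and SLBP, which binds the stem-loop of histone mRNAs, by -0.37. After median-ratio scaling these were -0.28 and -0.07, both not called.

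The deoxynucleotide genes had the lowest median log2 change of the 8 roles as deposited, -1.27, and 4 of 5 fell at both scalings. DUT, the dUTPase that keeps uracil out of DNA and yields the substrate of thymidylate synthase, went from 35.0 and 34.2 RPM to 11.9 and 12.1 RPM (log2 change -1.45, SE 0.114, limma adjusted p = 7.79e-07). TK1, the cytosolic thymidine kinase of the salvage route, went from 63.2 and 67.7 RPM to 25.2 and 27.7 RPM (-1.27, SE 0.108, limma adjusted p = 1.38e-06). TYMS, thymidylate synthase, was at 8.52 and 7.73 against 2.91 and 2.30 RPM (-1.34). RRM2, the small subunit of ribonucleotide reductase, was at 33.0 and 37.4 against 14.7 and 14.3 RPM (-1.22). In each of these 4 genes the groups lay far apart relative to the gap within a group. RRM1, the large subunit, was at 17.5 and 18.8 against 16.0 and 15.4 RPM. Its groups did not overlap, but its log2 change of -0.19 (95% interval -0.45 to 0.07) did not pass the test, and it was 0.10 (-0.14 to 0.34) after median-ratio scaling.

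**Figure D2:**
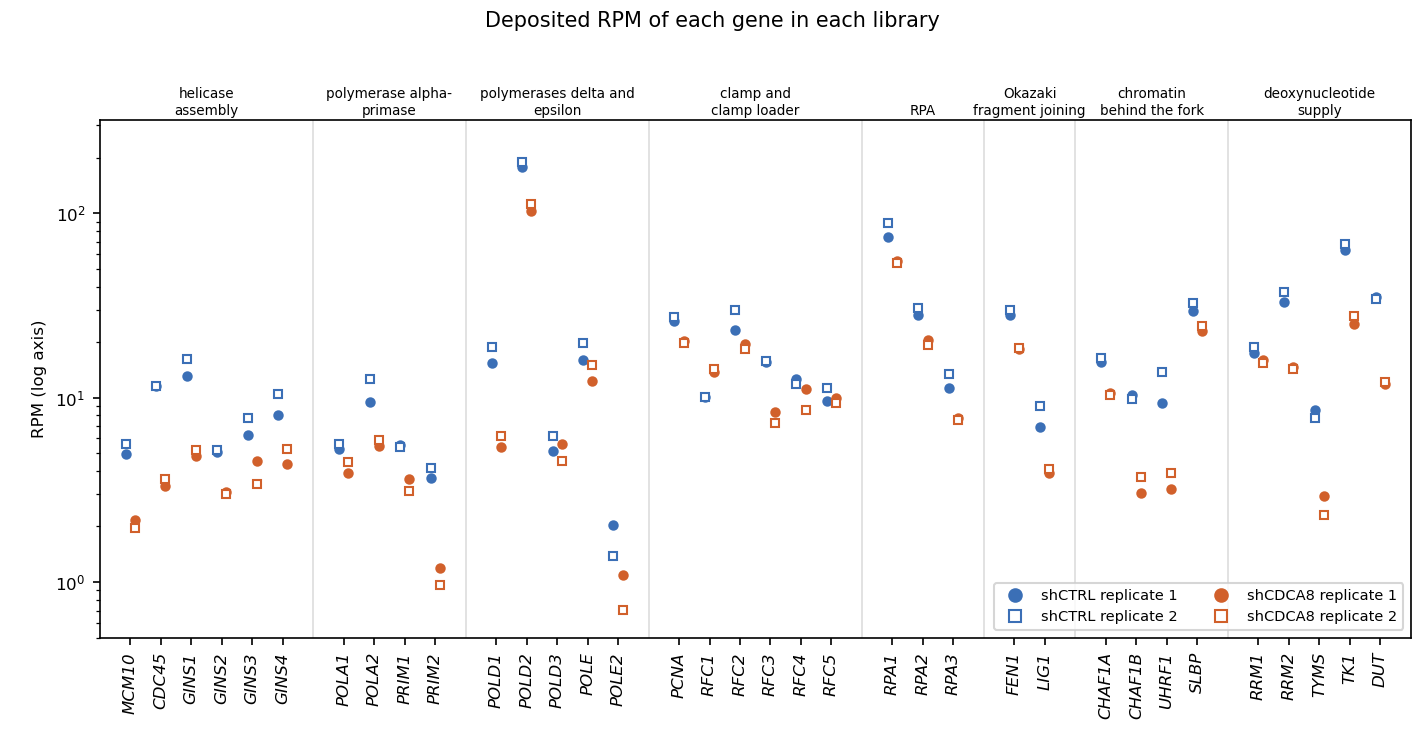
RPM of each member in the 4 libraries on a log axis, grouped by role, with shCTRL in blue, shCDCA8 in orange, circles for replicate 1 and squares for replicate 2. The 2 libraries of a group lie close together, and in 32 of the 35 members both shCDCA8 points are below both shCTRL points.

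In 32 of the 35 members both shCDCA8 libraries lay below both shCTRL libraries, and in 1 both lay above, where 56.8% and 26.5% of all tested genes did so. The 32 include PRIM2 and POLE2, which passed the filter only through shCTRL. The median difference between the 2 libraries of a group was 0.14 in shCTRL and 0.10 in shCDCA8 on the log2 scale. The size of the change was not tied to the level of the gene among the members (Pearson r = 0.06, Spearman rho = 0.11 across 35 genes of the same 4 libraries, given as a description). Nor was it tied to genomic length (Spearman rho = 0.09 for the 35 members and 0.10 for 10796 tested genes).

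**Figure D3:**
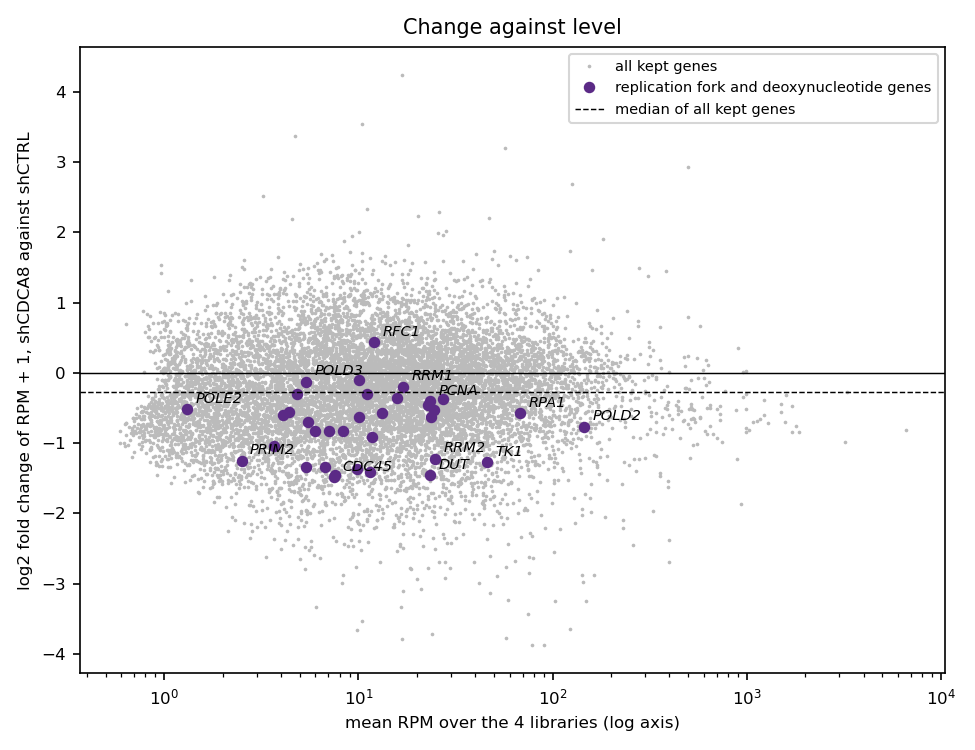
Log2 change against mean RPM (log axis) for all tested genes in grey and for the 35 members in purple, with a solid line at no change and a dashed line at the all-gene median. The members spread over the range of levels without a slope, and most lie in the lower part of the cloud.

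Ratios of 2 members within a library do not depend on how the library was scaled, so they show which partners changed unequally; the ratios are of RPM and not of molecules, since transcripts differ in length. Of 20 pairs, 12 were lower in both shCDCA8 libraries, 2 were higher and 6 overlapped. Of all single tested genes, 56.8% were lower and 26.5% higher in both, but those shares include the shift of the whole table, which cancels in a ratio. They are no background for the pairs, and the direction of a ratio depends on which gene is the denominator. The share among pairs of all genes was not computed. Several pairs share RFC1 or GINS4 as denominator, so the count is not one of separate results. With 2 libraries against 2 the exact two-sided permutation test cannot go below p = 0.333 (0.476 after adjustment over the 20 pairs), the value of each pair that did not overlap. RRM2 relative to RRM1, the subunits of 1 enzyme, went from 1.88 and 1.99 to 0.915 and 0.927, a log2 change of -1.07. PRIM2 relative to PRIM1 went from 0.667 and 0.777 to 0.326 and 0.308 (-1.18), with PRIM2 near 1 RPM in shCDCA8. CHAF1B relative to CHAF1A went from 0.663 and 0.597 to 0.286 and 0.362 (-0.97). In these 3 complexes the subunits changed unequally; PRIM1 and CHAF1A fell less than their partners as deposited, and RRM1 did not pass the test.

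Within the clamp loader the ratios of all 4 small subunits to RFC1 declined. RFC3 did so the most, from 1.54 and 1.57 to 0.612 and 0.512 (log2 change -1.48), then RFC2 (-0.95), RFC4 (-0.81) and RFC5 (-0.58). RFC1, the shared denominator, itself rose, so these 4 ratios are not separate results. RFC4 and RFC5 were not called on their own. In polymerase delta POLD2 relative to POLD1 went from 11.5 and 9.98 to 19.1 and 18.0 (0.79), and POLD3 relative to POLD1 from 0.333 and 0.328 to 1.04 and 0.737 (1.41). Within GINS, GINS1 relative to GINS4 changed by -0.59, while GINS2 and GINS3 relative to GINS4 overlapped between groups. CDC45 relative to GINS4 changed by -0.79 and POLA2 relative to POLA1 by -0.57. RPA kept nearly the same proportions: RPA3 relative to RPA1 went from 0.153 and 0.152 to 0.142 and 0.141 (-0.11), and RPA2 relative to RPA1 overlapped. TK1 and DUT relative to TYMS overlapped too, as did POLE2 relative to POLE.

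**Figure D4:**
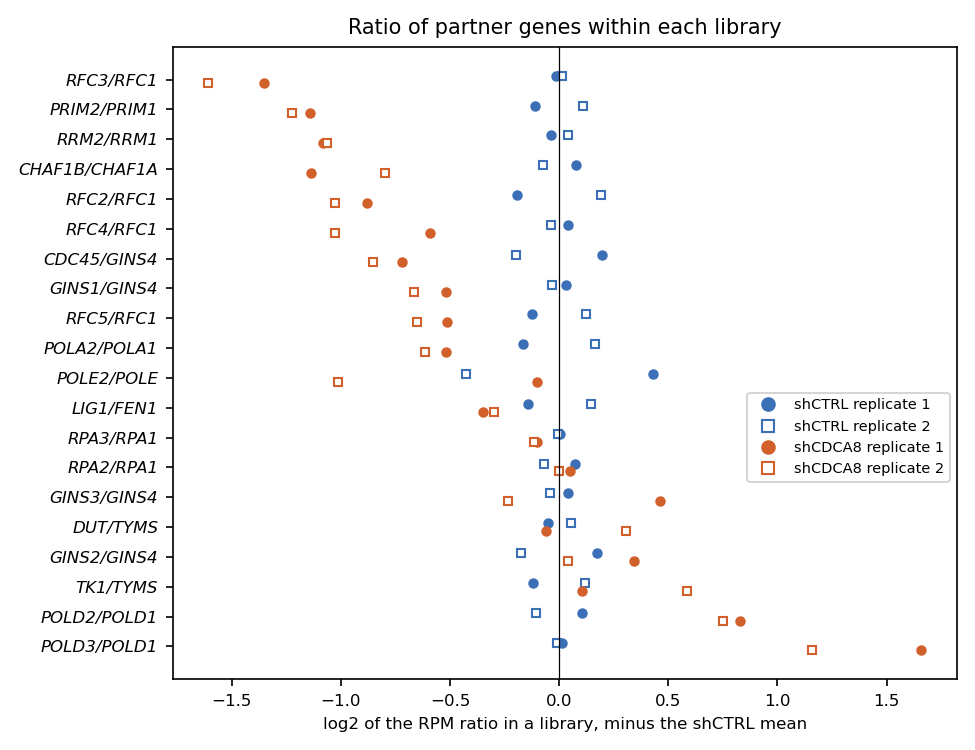
Log2 of the within-library RPM ratio of 20 pairs of members, minus the mean of the shCTRL libraries, with 1 point per library (shCTRL blue, shCDCA8 orange). RRM2/RRM1, PRIM2/PRIM1 and RFC3/RFC1 drop by more than 1 log2 unit, POLD3/POLD1 rises by 1.41, and the RPA pairs move by at most 0.11.

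Other genes of DNA replication were counted from lists that do not include the 35. Pooled, 57 of 109 tested genes fell and 19 rose, with a median log2 change of -0.34, and at median-ratio scaling 42 were lower and 31 higher. These shares were near those of all tested genes (47.6% lower and 18.8% higher as deposited, 33.6% and 33.2% after scaling, with a median of -0.27), so the pooled count is not a result about these genes. Origin licensing had the lowest median of these lists, with 11 of 16 genes down and 1 up (median -0.80): MCM3 changed by -1.84, CDC6 by -1.13 and CDT1 by -1.09, while ORC4 rose by 0.42. Of 11 origin firing genes 6 fell (DBF4B by 1.21, TICRR by 1.12 and CDC25A by 0.71 on the log2 scale) and 1, TOPBP1, rose (0.55). The median of these firing genes was -0.35, or -0.08 relative to all tested genes, and their share of falls was near the 47.6% of all tested genes. Other deoxynucleotide genes fell in 11 of 18 cases (median -0.57), with CMPK2 counted among them though it passed the filter only through shCTRL; the falls named by the smallest p were TK2 (-2.11), SHMT2 (-2.09) and UNG (-1.64), the last of which removes uracil from DNA. Rises there were RRM2B, the p53-inducible small subunit of ribonucleotide reductase (1.33), CMPK1 (0.93) and DTYMK (0.57). RRM2B was at 12.5 and 6.44 RPM in the shCTRL libraries, which differ widely, and at 24.6 and 23.9 RPM in the others, so it moved opposite to its paralog RRM2.

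Fork accessory genes were mixed, with 13 of 22 down and 4 up, where 47.6% of all tested genes were lower and 18.8% higher. Their median was -0.38, or -0.11 relative to all tested genes. CHTF8, a subunit of an alternative clamp loader, went from 71.5 and 78.2 RPM to 8.21 and 8.84 RPM (-2.99), a larger fall than that of any of the 35. SMARCAL1 (-1.23) and TIMELESS (-0.99) also fell, and HLTF (1.02), TOP1 (0.62) and WDHD1 (0.48) rose. Histone and chromatin genes outside the 35 were at 6 down and 3 up of 12, near the shares of all tested genes. Their median was 0.02 relative to all tested genes, so these counts are not a result about this list. ASF1B (-1.57), TONSL (-1.02) and SSRP1 (-0.67) were down and SUPT16H (1.44), ASF1A (1.05) and HAT1 up. The paired histone chaperones ASF1A and ASF1B thus moved in opposite directions, as did the FACT subunits SUPT16H and SSRP1.

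The replication stress checkpoint, translesion and mitochondrial lists had medians near 0 as deposited. Relative to the all-gene median of -0.27, these were higher by 0.36, 0.26 and 0.33. Checkpoint genes had 3 of 10 down (RHNO1 by 1.17, WEE1 by 0.84 and CHEK1 by 0.38 as deposited, the last not called at median-ratio scaling) and 3 up (RAD17 1.14, ATR 1.11, ETAA1 0.75), with a median of 0.09. ETAA1 went from 0.919 and 0.450 RPM to 1.78 and 1.83 RPM, so it passed the filter only through the group where it is high, and its rise is no support for the count. The shCTRL libraries also differed widely for RAD17 (8.39 and 5.33 RPM) and ATR (2.33 and 1.37 RPM). In other lists they did so for HLTF (12.9 and 7.73 RPM) and REV3L (1.78 and 0.878 RPM). The groups of RAD17, ATR, HLTF and REV3L did not overlap. Translesion genes had 5 of 11 down and 3 up (REV3L 1.03, POLI 0.68, POLQ 0.42), with a median of -0.01. The share that fell was near the 47.6% of all tested genes. REV3L and POLQ passed the filter only through shCDCA8, where they are high, so their rises are no support for the count. Mitochondrial DNA replication had 2 of 10 down and 1 up (SSBP1 0.60), with a median of 0.06. For comparison, 9 of 12 genes of G2 and mitosis fell and none rose, with a median of -0.96 and CDC20 (-1.80), PLK1 (-1.64) and CCNB2 (-1.55) among them; at median-ratio scaling 8 fell and 1 rose. After median-ratio scaling the counts lower and higher were 10 and 2 for licensing, 4 and 1 for firing, 10 and 3 for other deoxynucleotide genes, 9 and 5 for fork accessory, 3 and 5 for histone and chromatin, 2 and 7 for checkpoint, 3 and 4 for translesion and 1 and 4 for mitochondrial genes. Whether the lists differ from the 35 members was not tested.

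**Figure D5:**
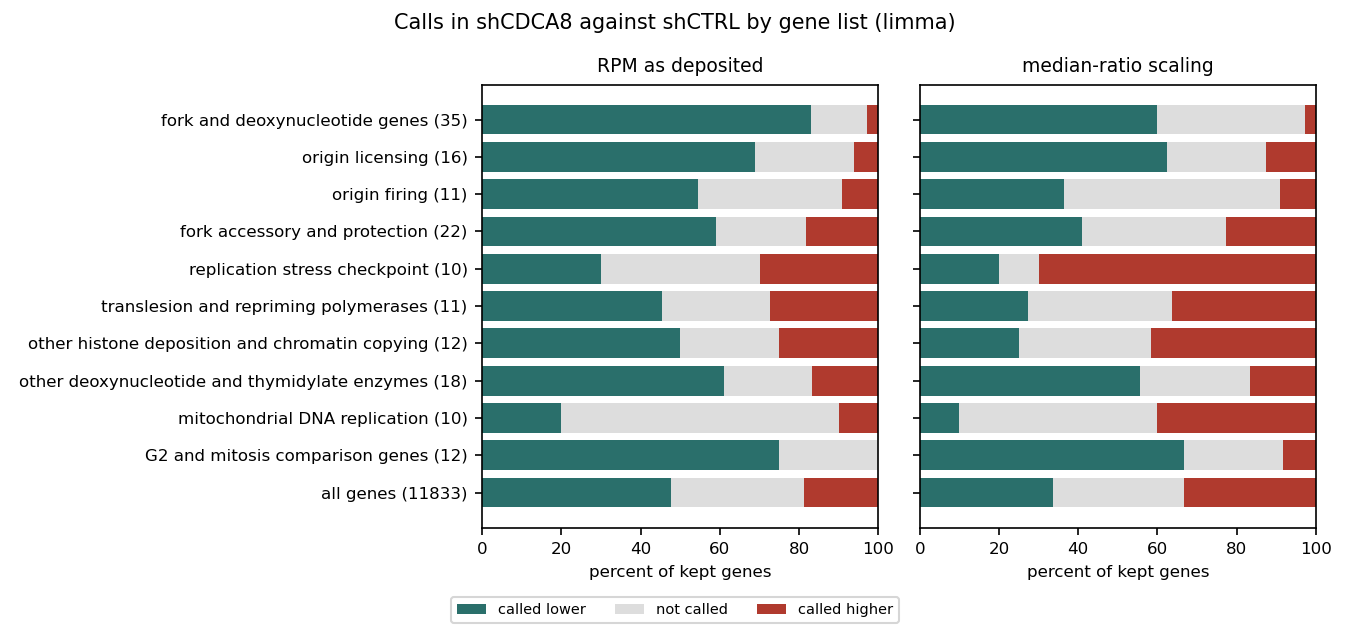
Share of the tested genes of each list called lower, higher or not called by limma, as deposited (left) and after median-ratio scaling (right), with the number of genes beside each list. As deposited the 35 members have the largest share of falls of the sets shown (29 of 35), and the checkpoint list has 3 calls in each direction. After scaling the checkpoint list has 2 lower and 7 higher. The share of falls is then larger in G2 and mitosis (8 of 12) and origin licensing (10 of 16) than in the members (21 of 35).

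Reads of some members can be shared with other genes, since no source used here gives the strand setting of the counting. TYMS lies opposite ENOSF1, which was at 14.1 and 14.8 against 12.3 and 12.5 RPM and did not pass the test, and opposite TYMSOS, which fell. RPA3 shares its locus with a row that rose (UMAD1, listed as RPA3-AS1, 0.57), and RFC5, CHAF1A, GINS2 and PRIM2 have protein-coding neighbours on the opposite strand. WSB2 (opposite RFC5) was at 128 and 128 RPM in shCTRL, UBXN6 (CHAF1A) at 111 and 112, and GSE1 (GINS2) at 113 and 144. These are far above the members, and all fell (log2 changes -0.48, -0.68 and -0.39). RAB23 (PRIM2) was not called (0.17). Whether their reads entered the members was not tested. DUT has 8 named pseudogenes, PCNA 4, and RPA2 and RRM2 3 each, so the values of these genes depend on how reads with several matches were counted.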

How the data were processed

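RNA libraries of C4-2 cells (2 shCTRL, 2 shCDCA8) were analysed, and the small RNA libraries of the series were not used here. The deposited values are RPM per gene, per the file headers. The build hg19 and the tools cutadapt, TopHat, HTSeq and edgeR stand, without versions, in the submitters' processing notes; the divisor and the strand setting are not given in these sources. Each value was a whole multiple of 1 read in its library (100% of values within 0.01), so reads were recovered; the divisors ranged from 46709612 to 55289855 reads. Depth covers counting error only.

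The 11833 of 18892 genes that reached 1 RPM in 2 or more of the 4 libraries were tested with limma 3.58.1 in R 4.3.3, on log2(RPM + 1) (mean-variance trend, two-sided, Benjamini-Hochberg, threshold 0.05). Fold changes are on that scale and are too small for low genes. For median-ratio scaling, each library was divided by the median, over kept genes, of its ratios to the genes' geometric means. edgeR 4.0.16 (quasi-likelihood) and DESeq2 1.42.0 on the recovered reads were alternatives and called 7807 and 7214 genes. Other alternatives were the pseudocount, the filter, further scalings, no trend, a replicate block and leaving out each library. The fit was tested on simulated data before use. It recovered 50.8% of changes of 1.5-fold, 97.3% of 2-fold and 100% of 4-fold, and called 5 of 11425 unchanged genes. The simulation changed few genes and held no shift of the whole table, unlike these data, so it does not show how the fit does here.

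Within-library ratios were compared by exact permutation. Libraries of 1 group differed by more than sampling noise (chi-square per degree of freedom 8.08 and 10.0). Promoter windows and gene positions came from RefSeq tables (GRCh38.p14), matched by symbol. Members and lists were chosen with earlier results of these data known. Every member is named; values in every library are given for the 2 of each role with the smallest p, for any that rose or was not called, and also for PCNA, RRM2 and TYMS, added after their values were seen; of other lists up to 3 genes per direction with the smallest p are named, and not all of these are printed.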

Additional observations from a re-analysis of the deposited data

How the results depend on the processing

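As deposited, 5628 genes were lower and 2224 higher. Higher genes numbered 3931 at median-ratio scaling, 3980 after quantile normalization, 3985 after scaling to the gene rows, 3851 with edgeR and 3639 with DESeq2; lower genes numbered 3721 after quantile normalization and 3575 with DESeq2, and 3979, 3873 and 3956 with median-ratio scaling, scaling to the gene rows and edgeR. Of the 35 members, 29 were lower as deposited, 21 with each of the 3 scalings, 22 with edgeR and 18 with DESeq2; 18 were lower in all 15 settings in which they could be tested, while MCM10, PRIM2 and POLE2 were not tested at a filter of 5 RPM. The other pathway genes that were higher rose from 19 to 31, 35, 33 and 30 with median-ratio scaling, quantile normalization, scaling to the gene rows and edgeR. The median of the members relative to all genes, -0.35 as reported, was -0.47 with a pseudocount of 0.1 RPM, -0.53 with no filter, and -0.46 with edgeR and with DESeq2.

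Leaving out 1 library gave a relative median from -0.43 to -0.31, 26 to 28 lower members, 0 to 1 higher members (0 without the second shCDCA8 library), 4848 to 5624 lower and 1869 to 2059 higher genes, and 48 to 54 lower and 17 to 20 higher other pathway genes. Changes near 0 turned direction, none of them called: in the order median-ratio, quantile, gene rows, edgeR and DESeq2, POLD3 was 0.14, 0.17, 0.15, 0.16 and 0.17, RFC5 0.19, 0.16, 0.20, 0.20 and 0.21, and RRM1 0.10, 0.044, 0.11, 0.10 and 0.11; POLA1 was 0.010 after quantile normalization. With 1 library left out, POLD3 ranged from -0.25 to 0.00092 and RFC5 from -0.20 to 0.0096. Of the log2 ratios whose groups overlapped, DUT/TYMS was -0.11 with a pseudocount of 1, and with 1 library left out DUT/TYMS ranged from -0.063 to 0.30, GINS3/GINS4 from -0.24 to 0.46 and RPA2/RPA1 from -0.047 to 0.094. The cause was not tested.

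Same-numbered libraries deviated together (correlation 0.31), but with 2 pairs and no label that ties them the numbers do not pair the samples. With the number as a replicate block, 31 members were lower and 1 higher, 6189 genes lower and 2712 higher, 57 other pathway genes lower and 22 higher, and the relative median stayed -0.35; POLA1 and RFC4 gained a call. Depth limits the low genes most: 39 reads were behind the lowest value of POLE2.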
